A study of Mus musculus with 4 samples.

Results

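The S100 genes described here are S100a1, S100a4, S100a6, S100a8, S100a9, S100a10, S100a11 and S100a13, which encode small calcium-binding proteins. They were taken by exact gene symbol from the gene tables of 4 single-cell libraries of mouse liver, and make up 8 of the 17 S100 genes and of the 27998 genes that the tables of all libraries share. S100 proteins carry EF-hand calcium-binding loops, work mostly as dimers and change shape when calcium binds, which exposes a surface for their target proteins. S100A8 and S100A9 form a heterodimer, calprotectin, that fills much of the cytosol of neutrophils, is found in some monocytes, and acts outside the cell as a ligand of Toll-like receptor 4 and of the receptor RAGE. S100A4 binds nonmuscle myosin, S100A6 binds the calcyclin-binding protein Cacybp, S100A10 binds annexin A2 and S100A11 binds annexin A1. S100A13 takes part in the release of fibroblast growth factor 1, and S100A1 is best known from calcium cycling in heart muscle.

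The libraries were made with 10x Genomics droplet chemistry, which reads transcript ends at the 3' side and counts each captured molecule once as a unique molecular identifier (UMI). Male wild-type C57BL/6 mice, 8 weeks old and matched for weight when obtained, were fed a normal control diet (NCD) or a diet lacking methionine and choline (MCD), which produces fatty liver, for 6 weeks, with 2 libraries on each diet. Cells from all groups were sorted from the liver as 7AAD-negative, CD45-positive, Ly6G-negative cells with intermediate CD11b; the study's design text gives low F4/80 and the sample labels give high F4/80, and this was not settled here. The labels do not say whether a library held 1 mouse or a pool, so p-values measure only the spread between these libraries.

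The libraries of the 2 diets stood apart in depth. Median depth per retained cell was 2173, 2254, 12038 and 12300 UMIs in NCD replicates 1 and 2 and MCD replicates 1 and 2, so MCD cells were several times deeper. Of the NCD barcodes 37.2% and 33.6% exceeded the limit of 10% mitochondrial UMIs against 11.6% and 9.44% on the MCD. Diet and depth therefore cannot be told apart by library, and for the results so named the values in cells of matched depth, 1500 to 6000 UMIs, are given beside them. After filtering, 9609 cells remained (1735, 1786, 2950 and 3138 per library, in the same order), and pairs of libraries shared 1 to 8 retained barcodes. Clustering without the S100 genes gave 26 clusters, which were named from marker lists that hold no S100 gene. The Ly6Chi-like and Ly6Clo-like monocytes, the C1q macrophage-like cells and the lipid-associated macrophage-like cells were joined as the monocyte and macrophage union (651, 695, 1236 and 1296 cells). The main classes were held by different clusters on the 2 diets: of the Ly6Chi-like cells, 1 cluster held 410, 449, 4 and 4 and another 5, 4, 671 and 754 per library, and the Ly6Clo-like, cDC2-like, migratory DC-like, NK-like and endothelial classes were split likewise. Diet comparisons within these classes therefore set different clusters against each other. No cluster was named neutrophil-like, but in its 102 NCD cells the cycling class had as many leading genes from the neutrophil as from the cycling list, with Camp and Ngp among them. A cluster led by Retnlg and Ccr3 stayed unnamed. Levels are CPM, the UMIs of a gene scaled to the UMI total of all cells of a class in a library, and sets of 4 values stand in the order NCD replicate 1, NCD replicate 2, MCD replicate 1, MCD replicate 2.

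All 8 genes lie on mouse chromosome 3 and are protein-coding in GENCODE M21 (build GRCm38), the coordinates used here. S100a1 (ENSMUSG00000044080, chr3:90511034-90514392, minus strand) and S100a13 (ENSMUSG00000042312, chr3:90514435-90524581, plus strand) start head to head, 42 bases apart. S100a4 (ENSMUSG00000001020, chr3:90603771-90606045), S100a6 (ENSMUSG00000001025, chr3:90612882-90624181) and S100a8 (ENSMUSG00000056054, chr3:90668978-90670035) follow on the plus strand. S100a9 (ENSMUSG00000056071, chr3:90692632-90695721) lies on the minus strand, 22596 bases beyond S100a8. These 6 genes fit into 184688 bases. S100a11 (ENSMUSG00000027907, chr3:93520488-93526287) and S100a10 (ENSMUSG00000041959, chr3:93555080-93564643), both on the plus strand, lie 2824766 bases further on and 28792 bases apart.

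RefSeq promoter windows of 250 bases before the annotated start were found for 7 of the 8 genes (build GRCm38.p6), all except S100a10. Shown are S100a8 and S100a9, whose UMIs came from the same few cells, S100a4, which was higher on the MCD in most classes, and S100a13, which was lower and shares its start region with S100a1. The sequences are credited to RefSeq and run 5' to 3' on the gene's own strand, with motif matches in capitals. The motif TATAAA is the core of a TATA box, the motif TGANTCA is a form bound by AP-1 factors, and the motif TTGCNNAA is a form bound by C/EBP factors.
S100a8, chr3:90668821-90669070, plus strand: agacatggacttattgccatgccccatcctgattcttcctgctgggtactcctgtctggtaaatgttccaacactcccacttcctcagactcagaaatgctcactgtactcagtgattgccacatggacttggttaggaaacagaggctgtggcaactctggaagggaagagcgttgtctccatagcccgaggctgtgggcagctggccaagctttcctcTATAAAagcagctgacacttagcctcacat
S100a9, chr3:90695722-90695971, minus strand: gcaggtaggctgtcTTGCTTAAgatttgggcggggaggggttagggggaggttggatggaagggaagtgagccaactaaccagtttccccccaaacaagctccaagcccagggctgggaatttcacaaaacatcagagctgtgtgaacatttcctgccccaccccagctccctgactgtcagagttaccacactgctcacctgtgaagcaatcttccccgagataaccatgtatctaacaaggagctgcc
S100a4, chr3:90603520-90603769, plus strand: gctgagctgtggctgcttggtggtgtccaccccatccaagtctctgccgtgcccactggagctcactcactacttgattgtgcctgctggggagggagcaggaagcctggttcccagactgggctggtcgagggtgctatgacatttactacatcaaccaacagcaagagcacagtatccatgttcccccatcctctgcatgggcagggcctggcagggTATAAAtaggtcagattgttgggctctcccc
S100a13, chr3:90514185-90514434, plus strand: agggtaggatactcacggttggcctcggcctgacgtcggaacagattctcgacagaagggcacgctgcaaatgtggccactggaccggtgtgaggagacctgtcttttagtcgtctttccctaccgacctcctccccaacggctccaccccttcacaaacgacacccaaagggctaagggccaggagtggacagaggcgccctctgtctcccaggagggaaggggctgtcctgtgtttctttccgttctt
Both strands were searched, and no matches overlap each other in these windows. TATAAA began 30 bases before the start in the S100a8 window and 31 bases before it in the S100a4 window, and is present in 12.4% of all 32851 RefSeq windows of this length. TTGCNNAA began 236 bases before the start of S100a9 and is present in 9.56% of all windows. TGANTCA was found only in the S100a11 window among the 7 windows, at 136 and at 38 bases, and is present in 6.75% of all windows. None of these motifs was found in the windows of S100a1, S100a6 or S100a13. The RefSeq and GENCODE starts agree for S100a9 and S100a13 and differ for the others. The windows of S100a1, S100a6, S100a8 and S100a11 end inside the GENCODE gene.

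S100a8 and S100a9, the subunits of calprotectin, came mostly from a handful of cells. S100a8 had 6757, 6439, 5651 and 1077 UMIs in the 4 libraries, and 1 cell held 48.3%, 61.9%, 83.9% and 39.6% of them. The 4 cells with most UMIs held 96.9%, 98.1%, 86.3% and 58.2% of S100a8. S100a9 had 4864, 4241, 5129 and 856 UMIs, and 1 cell held 39.0%, 66.3%, 96.5% and 60.7% of them. In each library 1 to 3 cells thus held 50% or more of the UMIs of S100a8. S100a8 was seen at all in 69, 55, 328 and 213 cells of these libraries. The 6 other S100 genes had no such cell: the highest share that 1 cell held of any of them in a library was 3.21%. S100a4, for comparison, needed its 247, 243, 553 and 644 highest cells to reach 50% of its UMIs.

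**Figure D1:**
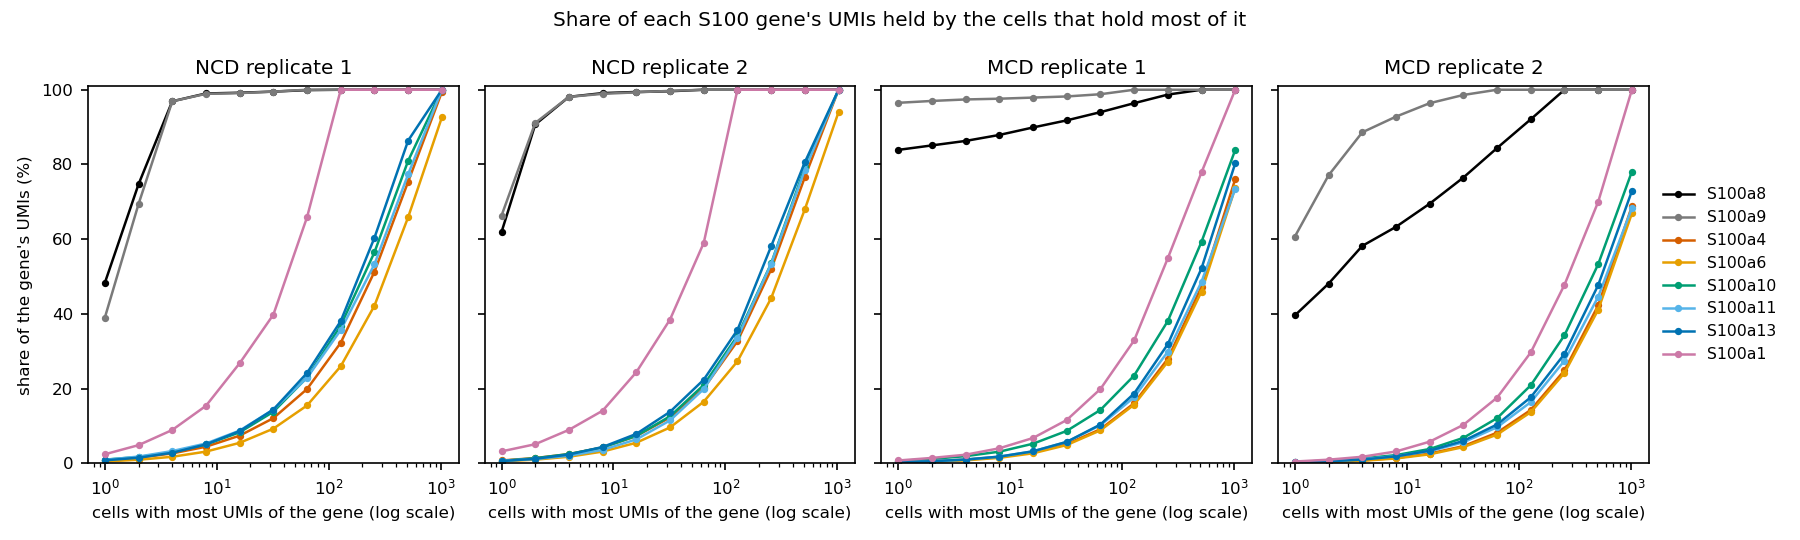
Cumulative share of each S100 gene's UMIs (y axis, percent) held by the cells with most of its UMIs (x axis, number of cells, log scale), in 1 panel per library. The S100a8 and S100a9 curves start between 39.0% and 96.5% at the first cell, while the other 6 genes stay at or under 3.21% there.

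In all, 10 of the 9609 cells held 100 or more S100a8 UMIs: 4 in each NCD library and 1 in each MCD library. In NCD replicate 1 they held 3264, 1783, 1153 and 346 S100a8 UMIs, the highest and the third in the Ly6Chi-like class and the others in the cycling class. S100a8 made up 33.4% of the 9766 UMIs of the highest cell. In NCD replicate 2 they held 3984, 1856, 371 and 104 S100a8 UMIs, 3 in the cycling class and the last in the endothelial class. In MCD replicate 1, 1 cycling-class cell of 31366 UMIs held 4740 S100a8 and 4950 S100a9 UMIs, and the next cell held 69 S100a8 UMIs and no S100a9. In MCD replicate 2 the highest cell, in the Retnlg Ccr3 cluster, held 427 S100a8 and 520 S100a9 UMIs. The high cells thus fell into a different set of classes in each library. A class here is that of a cell's cluster. The highest and the third cell of NCD replicate 1 held 1 and 3 UMIs of Ly6c2, a Ly6Chi-like marker, among 9766 and 4116. Mki67, a cycling marker, was at 0 in the cycling-class high cells of NCD replicate 1 and in the highest cell of NCD replicate 2. The other cycling-class high cells held 5 and 10 Mki67 UMIs in NCD replicate 2 and 13 in MCD replicate 1.

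Most of these cells also held transcripts of neutrophil granule proteins: UMIs of Camp, the cathelicidin precursor, were present in 4 of the 4, 2 of the 4, 1 of the 1 and 0 of the 1 high cells of the 4 libraries. The 10 cells carried 98.8%, 98.9% and 98.5% of all Camp UMIs in NCD replicates 1 and 2 and MCD replicate 1, while MCD replicate 2 had no Camp UMI in any retained cell. The MCD replicate 1 cell held 1465 UMIs of Camp, 1394 of Ngp (neutrophilic granule protein), 247 of Ltf (lactoferrin) and 2 of Ly6g, the antigen used to gate neutrophils out. Ly6g was at 0 UMIs in the retained cells of the other 3 libraries. The highest cell of NCD replicate 1 held 372 Camp and 37 Ngp UMIs, and that of NCD replicate 2 held 860 Camp UMIs. The MCD replicate 2 cell held 39 UMIs of Retnlg and none of Camp. Over these 10 cells together the level of S100a8 was 176311 CPM and that of S100a9 was 140302 CPM. In the same cells S100a1 had no UMI, S100a4 and S100a10 stood at 58.7 CPM and S100a13 at 117 CPM, while S100a6 stood at 1066 CPM. S100a11 was present in 10 of the 10 cells, at 1330 CPM. All of these values describe cells picked for their S100a8.

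Outside these high cells most of the joint S100a8 and S100a9 UMIs of Ly6Chi-like monocytes were S100a8, with the highest shares in the MCD libraries. After the 10 cells were left out, the Ly6Chi-like monocytes held 82 S100a8 UMIs against 44 S100a9 UMIs in NCD replicate 1 and 8 against 3 in NCD replicate 2. They held 512 against 29 in MCD replicate 1 and 201 against 10 in MCD replicate 2. S100a8 thus made up 65.1% (95% exact interval 56.1 to 73.4) and 72.7% (39.0 to 94.0) of the joint UMIs on the NCD, and 94.6% (92.4 to 96.4) and 95.3% (91.5 to 97.7) on the MCD. The MCD intervals lie above that of NCD replicate 1 and overlap that of NCD replicate 2, which rests on 11 UMIs. In NCD replicate 1 a single cell held 42 of the 82 S100a8 and 33 of the 44 S100a9 UMIs, so its share rests largely on that cell. The intervals cover counting error only, and the share compares cells with each other, not the amounts of the transcripts. In the highest cell of each library the same share was 63.2% (61.9 to 64.5), 58.6% (57.4 to 59.8), 48.9% (47.9 to 49.9) and 45.1% (41.9 to 48.3). Both MCD Ly6Chi-like values therefore lie above the interval of every highest cell.

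The share differed between the other MCD classes. In lipid-associated macrophage-like cells S100a8 made up 87.5% (81.0 to 92.4) and 70.0% (61.3 to 77.7) of the joint UMIs of the MCD libraries. In the unnamed MCD cluster led by Marcksl1, Clec4e and Saa3 it made up 87.1% (79.9 to 92.4) and 86.3% (76.2 to 93.2). Ly6Clo-like monocytes stood lower, at 66.7% (53.7 to 78.0) and 55.8% (49.2 to 62.4) on the MCD. Endothelial cells on the MCD stood at 50% (27.2 to 72.8) and 44.7% (38.8 to 50.7), where the intervals overlap those of the highest MCD cells. In MCD replicate 2 a single endothelial barcode held 91 of 127 S100a8 and 140 of 157 S100a9 UMIs. A single Ly6Clo-like cell there held 74 of 129 S100a8 and 81 of 102 S100a9 UMIs. Both MCD replicate 2 shares therefore rest largely on 1 barcode each. The Ly6Chi-like S100a8 UMIs were spread over 147 and 95 cells in the MCD libraries, with at most 13.5% in 1 cell. With each cell thinned to 1000 UMIs, 1.94%, 0.887%, 3.70% and 2.38% of Ly6Chi-like cells held an S100a8 UMI, and 1.70%, 0.222%, 0% and 0.132% held an S100a9 UMI; a count of 0 in MCD replicate 1 allows up to 0.444%. Without thinning the S100a8 shares were 3.61%, 1.77%, 21.8% and 12.5%. Thinned Ly6Clo-like monocytes held one in 4.79%, 2.65%, 1.63% and 0.946% of cells and endothelial cells in 2.82%, 1.61%, 0% and 1.30%, where 0 allows up to 3.06%. These shares overlap those of the Ly6Chi-like cells, so no order is read from them. NK-like cells, which should lack S100a8, held none after thinning, which allows up to 7.89%, 4.84%, 10.3% and 12.5% of their cells, at median depths of 1401, 1212, 6375 and 5428 UMIs against 1973, 2019, 13520 and 12699 in the Ly6Chi-like cells. These limits exceed the Ly6Chi-like shares and set no background for them. In cDC2-like cells the thinned S100a8 share was 0.289%, 0.368%, 0% and 0%, where 0 allows up to 1.12% and 0.752%.

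**Figure D2:**
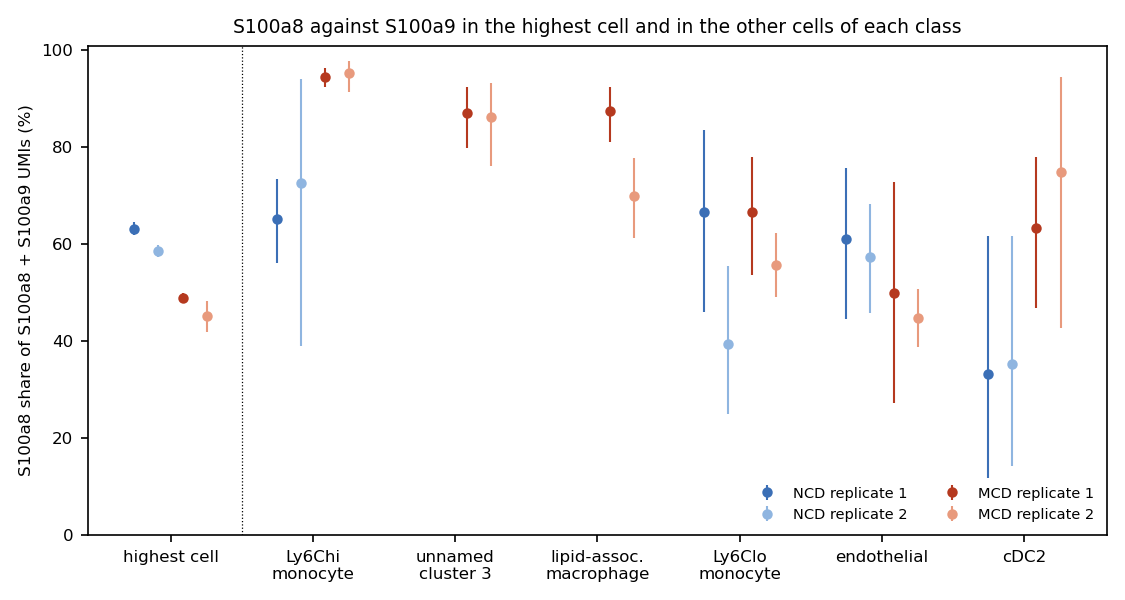
Share of joint S100a8 and S100a9 UMIs that are S100a8 (percent, with 95% exact intervals for counting error) in the highest cell of each library and in the other cells of each class. The MCD Ly6Chi-like monocytes stand at 94.6% and 95.3%, above the highest cells at 45.1% to 63.2%.

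The diet comparison summed UMIs per library and used edgeR's quasi-likelihood test with Benjamini-Hochberg adjustment over all genes tested, called at an adjusted p under 0.05. In the monocyte and macrophage union 6 of the 8 S100 genes passed, where 38.0% of the 10967 genes tested passed. S100a4 alone rose, against 20% of all genes, and S100a6, S100a8, S100a9, S100a10 and S100a13 fell, against 18.0% of all genes. In all retained cells S100a4 and S100a11 rose (S100a11 by 0.39, which lost its call without NCD replicate 2, MCD replicate 1 or MCD replicate 2), S100a8, S100a9 and S100a13 fell, and 49.1% of the 12740 genes tested passed (26.1% higher, 22.9% lower). Within classes that held at least 20 cells in every library, the share of all genes that passed was 29.1% in Ly6Chi-like and 25.1% in Ly6Clo-like monocytes, 30.3% in cDC2-like cells, 30.7% in endothelial cells and 20.8% in NK-like cells. It was 14.9% in the cycling class, 9.60% in migratory DC-like cells and 0.578% in the Retnlg Ccr3 cluster. Over these 8 classes, 27 of the 56 S100 results passed. S100a4 rose in 6 of the 8 classes in which it was tested and S100a13 fell in 5 of 8, while S100a6 rose in 3 and fell in 3. S100a1 rose in 2 of 5, S100a10 fell in 3 of 8, and S100a11 rose in 1 and fell in 1 of 8.

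**Figure D3:**
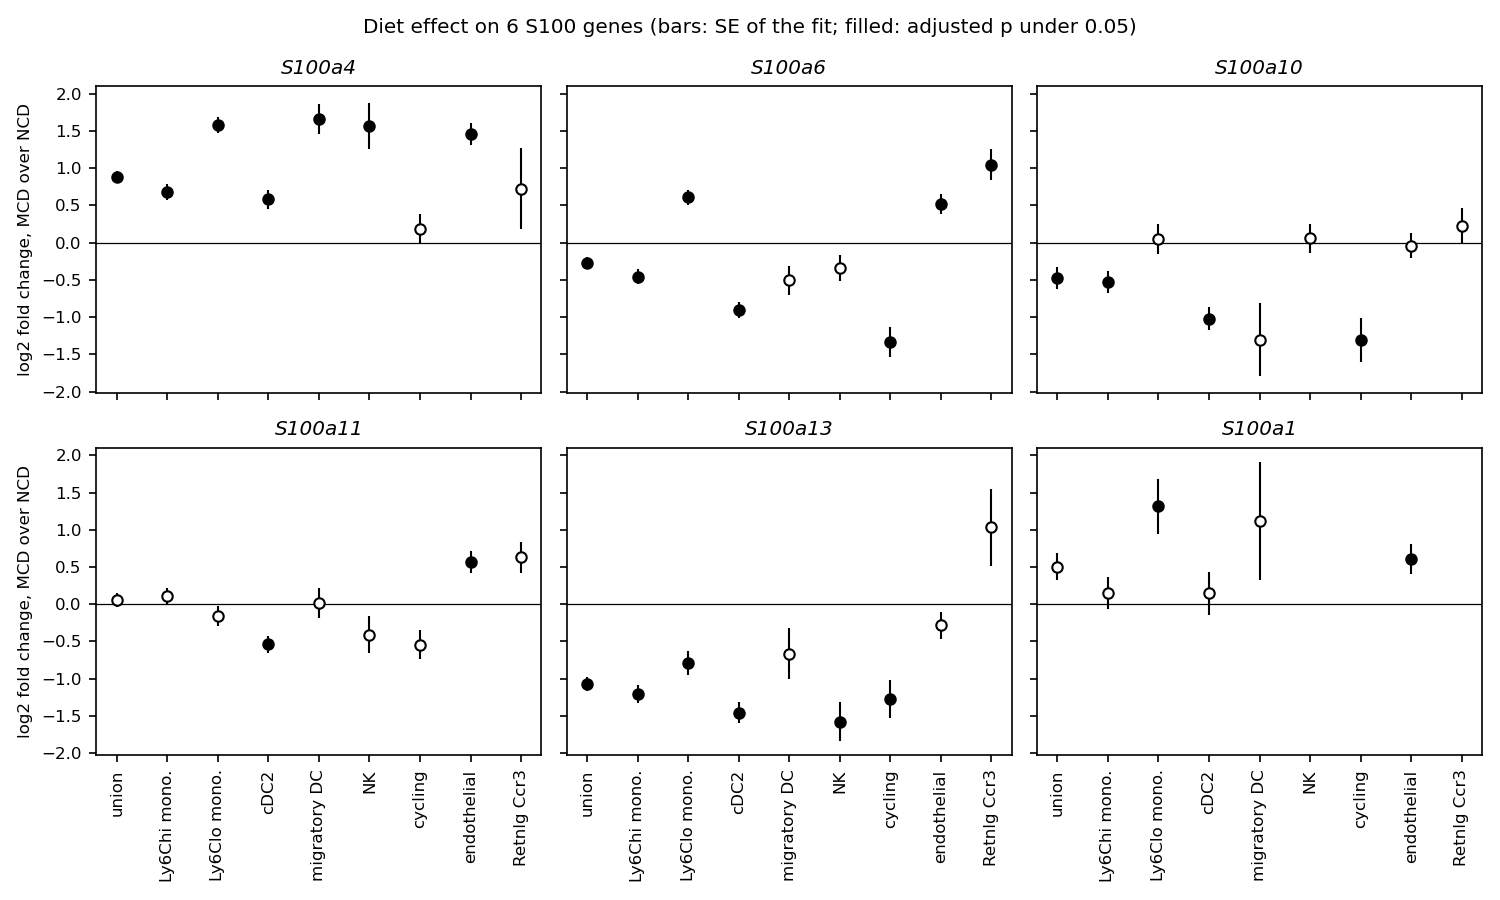
Log2 fold change, MCD over NCD, of 6 S100 genes in the union and in 8 classes (points, with SE as bars; filled points have an edgeR adjusted p under 0.05). With TMM factors and all depths, S100a4 points lie to the positive side throughout and S100a13 points to the negative side in all classes except the Retnlg Ccr3 cluster.

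For S100a8 and S100a9 the size of the diet change in the union and in Ly6Chi-like monocytes turned on 1 library, NCD replicate 1. In the union S100a8 passed in 16 and S100a9 in 19 of the 20 alternatives. Without that library S100a8 changed sign there, and the S100a9 change went from -7.66 to -1.86. In the union the level of S100a8 was 2972, 15.9, 39.4 and 24.1 CPM and that of S100a9 was 1924, 18.4, 3.94 and 8.70 CPM. NCD replicate 1 stood far above the other 3 libraries, and NCD replicate 2 lay below both MCD libraries for S100a8 and above them for S100a9. The S100a9 sum of NCD replicate 2 was 29 UMIs, of which a single cell held 16 (8.28 CPM without that cell). That of MCD replicate 2 was 152 UMIs, of which a single cell held 81 (4.07 CPM without it). S100a8 had a log2 fold change of -5.96 ± 1.52 (SE; adjusted p = 0.0139, 2 libraries per diet, edgeR) and S100a9 of -7.66 ± 1.56 (adjusted p = 0.00474). Without NCD replicate 1 the values were 0.67 (adjusted p = 0.287) for S100a8 and -1.86 (adjusted p = 0.0412) for S100a9. With all cells left out that held a Camp, Ngp or Ltf UMI, an alternative chosen after seeing the data, they were -0.78 (adjusted p = 0.218) for S100a8 and -2.40 (adjusted p = 0.00379) for S100a9. In Ly6Chi-like monocytes S100a8 stood at 5133, 8.21, 56.1 and 21.1 CPM, and its log2 change of -6.61 (adjusted p = 0.00857) became 1.79 (adjusted p = 0.396) without NCD replicate 1. S100a9 there stood at 3328, 3.08, 3.18 and 1.05 CPM, and its change of -10.16 (adjusted p = 0.0018) became -0.98 (adjusted p = 0.667). In this class neither gene passed without MCD replicate 1 or without MCD replicate 2 either, with adjusted p = 0.134 and 0.12 for S100a8 and 0.0821 and 0.0544 for S100a9. Summed over the 12 neutrophil genes, the level in the same cells was 1231, 181, 401 and 330 CPM, with Camp at 768, 4.11, 0.219 and 0 CPM. Outside NCD replicate 1 most of this sum came from Mmp8 (94.4, 173 and 160 CPM) and Csf3r (71.9, 112 and 109 CPM). Mmp8 was also the leading gene of the MCD Ly6Chi-like cluster, so the sum is no measure of neutrophil RNA there. The part of the neutrophil genes in the S100a8 and S100a9 results was not tested beyond leaving out the cells named.

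Both genes were also called lower in all retained cells, at -3.80 (adjusted p = 0.00778) for S100a8 and -3.43 (adjusted p = 0.0135) for S100a9, the latter lost without NCD replicate 1 (adjusted p = 0.0715) or NCD replicate 2 (adjusted p = 0.0562). S100a8 stood there at 1361, 1242, 175 and 29.0 CPM, and at 705, 475, 28.2 and 17.5 CPM once the highest cell of each library was left out. At matched depth S100a8 stood at 488, 534, 18.4 and 415 CPM, with MCD replicate 2 near the NCD libraries, and S100a9 at 425, 312, 7.37 and 522 CPM, where MCD replicate 2 was highest and the diets overlap. Neither passed there (with TMM factors, S100a8 -1.84, adjusted p = 0.161, and S100a9 -1.10, adjusted p = 0.478). The depth limits kept the highest cell of MCD replicate 2, which held 427 S100a8 and 520 S100a9 UMIs among 4209. They left out the highest cells of NCD replicates 1 and 2 and MCD replicate 1, of 9766, 14076 and 31366 UMIs. The matched-depth values thus depend on which high cells were kept, and cannot show whether the diets overlap outside these cells. The cycling class held S100a8 at 10026, 21385, 7167 and 0 CPM. Its log2 value of -2.64 there did not pass (adjusted p = 0.268), and the summed neutrophil genes of that class stood at 5656, 6516, 6218 and 95 CPM. In cDC2-like cells S100a9 fell by 3.43 on the log2 scale (adjusted p = 0.00141) on 10, 11, 15 and 3 UMIs. Of 19 class sums with at least 20 S100a8 UMIs, 11 had over 50% of them in 1 cell. The barcodes removed for mitochondrial UMIs held a further 618, 602, 16 and 63 S100a8 UMIs, of which 1 barcode held 82.5%, 47.8%, 18.8% and 77.8%.

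S100a4, the myosin-binding member known from motile cells, rose on the MCD in more classes than any other S100 gene. At matched depth with TMM scaling its value was negative in the union, in Ly6Chi-like monocytes and in endothelial cells. With the same setting S100a4 stayed positive in Ly6Clo-like monocytes but did not pass. In the union it stood at 744, 817, 1910 and 1815 CPM, with both MCD libraries above both NCD libraries. The log2 fold change was 0.88 ± 0.08 (adjusted p = 7.69e-05). In Ly6Chi-like monocytes it stood at 1000, 1054, 2396 and 2238 CPM, a log2 change of 0.68 ± 0.10 (adjusted p = 0.000471). In Ly6Clo-like monocytes, the patrolling type, it stood at 450, 453, 1654 and 1665 CPM, a log2 change of 1.58 ± 0.11 (adjusted p = 6.69e-08). Within each of these classes the libraries of a diet lay close together and the diets did not overlap. The log2 rise was 0.58 (adjusted p = 0.00371) in cDC2-like cells, 1.57 (adjusted p = 0.0029) in NK-like cells, 1.66 (adjusted p = 6.85e-10) in migratory DC-like cells and 1.46 (adjusted p = 2.48e-05) in endothelial cells. The cycling class, at 584, 606, 1042 and 933 CPM, did not pass (log2 0.19, adjusted p = 0.553). Neither did the Retnlg Ccr3 cluster, at 89.6, 0, 104 and 116 CPM (adjusted p = 0.597). With each library left out in turn the other S100a4 calls in classes held, except in cDC2-like cells without MCD replicate 1 (log2 0.40, adjusted p = 0.138).

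The order of the classes by S100a4 level differed between the diets. On the NCD the highest level, 1027 ± 38.1 CPM (SD, n = 2), was that of Ly6Chi-like monocytes, which overlapped an unnamed cluster led by Ifit1 and Isg15 at 992 ± 14.7 CPM. cDC2-like and migratory DC-like cells followed at 699 ± 14.9 and 692 ± 40.5 CPM, and did not differ beyond their spread. On the MCD migratory DC-like cells stood first at 2414 ± 121 CPM, overlapping Ly6Chi-like monocytes at 2317 ± 111 CPM. Ly6Clo-like monocytes came after these and the Marcksl1 Clec4e Saa3 cluster there, at 1659 ± 7.21 CPM. Lipid-associated macrophage-like cells, of which the NCD libraries held 1 and 4 cells, stood at 1097 and 905 CPM on the MCD, and the C1q macrophage-like cells of the NCD libraries at 264 and 338 CPM. After thinning to 1000 UMIs, 63.6%, 59.9%, 88.7% and 83.1% of Ly6Chi-like cells and 27.5%, 31.2%, 69.4% and 71.6% of Ly6Clo-like cells held an S100a4 UMI. NK-like cells held one in 7.89%, 8.06%, 13.8% and 20.8% of cells. Unthinned, the Ly6Chi-like shares were 83.4%, 80.6%, 99.7% and 99.2%.

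**Figure D4:**
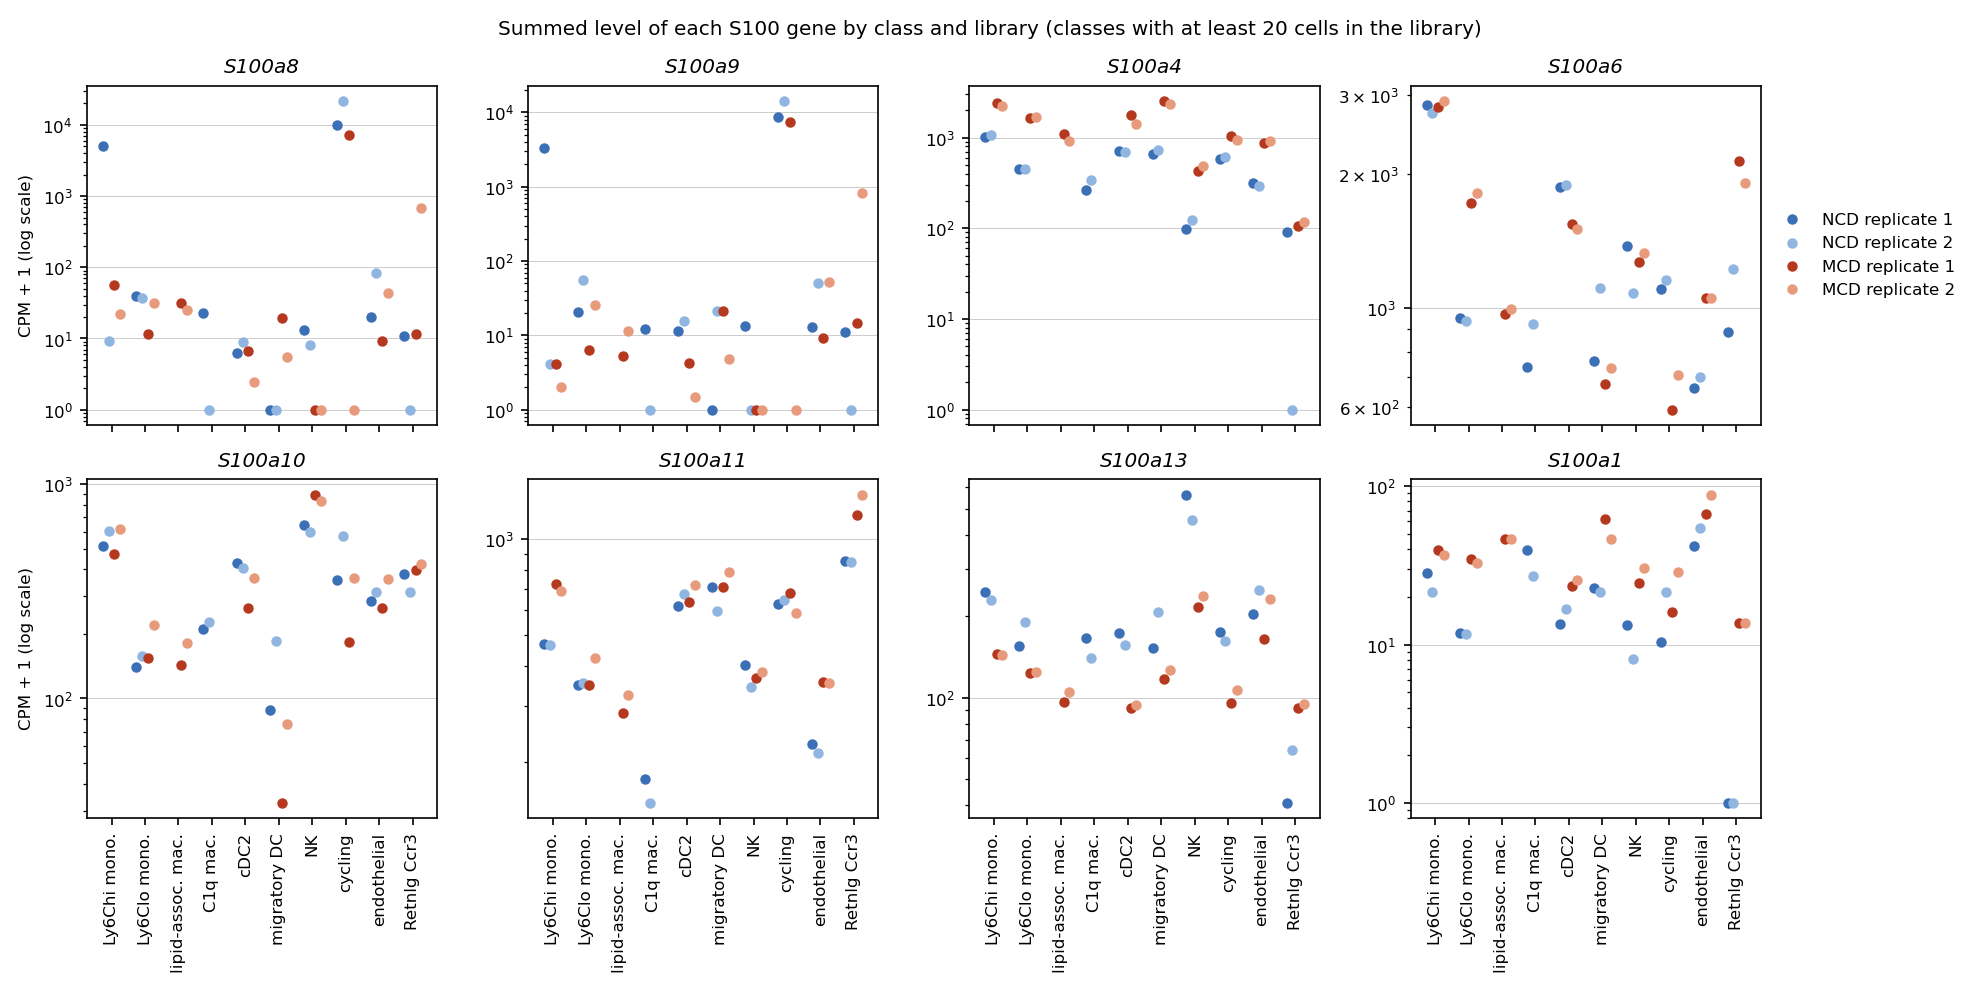
Level of each S100 gene (CPM + 1, log scale) in 10 classes, with 1 point per library. S100a4 points of the MCD libraries lie above those of the NCD libraries in both monocyte classes, while S100a8 and S100a9 of NCD replicate 1 lie far above the other libraries in Ly6Chi-like monocytes.

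Depth moved with the S100a4 result. Among cells of 1500 to 6000 UMIs, Ly6Chi-like monocytes (360, 390, 30 and 40 cells) held S100a4 at 1003, 1067, 1557 and 1439 CPM. MCD Ly6Chi-like cells of over 12000 UMIs held it at 2425 and 2282 CPM. Within the MCD libraries the level was therefore higher in deeper cells, and at matched depth both MCD libraries still lay above both NCD libraries in CPM. The test at matched depth depended on the scaling, as the median log2 change of all genes in the union was 0.04 with TMM factors (edgeR's scaling, which centres most genes) and 0.41 with library totals. For cells of 1500 to 6000 UMIs the union gave S100a4 a log2 change of -0.29 (adjusted p = 0.111) with TMM factors and 0.33 (adjusted p = 0.0354) with library totals, where the median of all genes was 0.63. In Ly6Clo-like monocytes (104, 117, 36 and 35 cells of that depth, at 457, 462, 832 and 641 CPM) the values were 0.29 (adjusted p = 0.239) and 0.73 (adjusted p = 0.00225). In Ly6Chi-like monocytes they were -0.12 (adjusted p = 0.627) and 0.55 (adjusted p = 0.00234). In endothelial cells of that depth S100a4 was lower on the MCD under both scalings, at -1.59 (adjusted p = 0.0187) and -1.36 (adjusted p = 0.0189). In the union S100a4 passed in 19 of the 20 alternatives, all except the TMM fit at matched depth; the part of depth in its rise was not tested further.

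**Figure D5:**
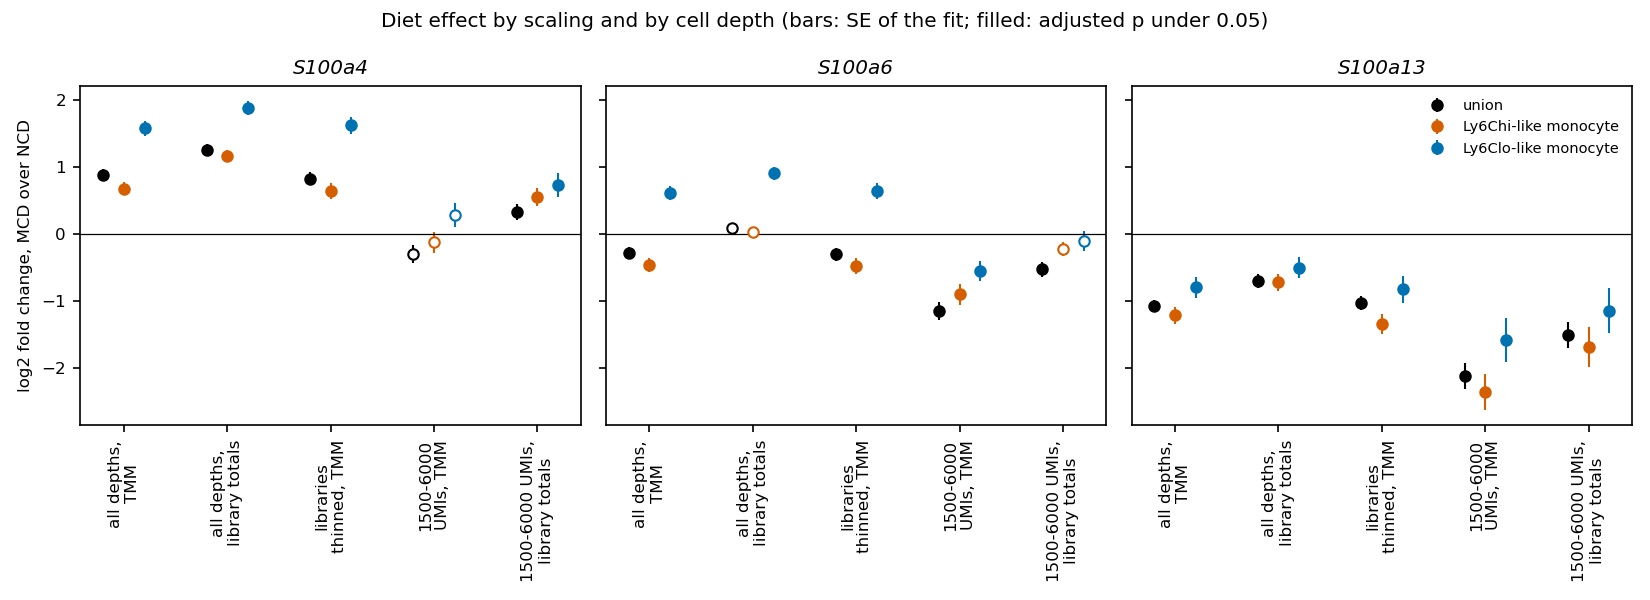
Log2 fold change, MCD over NCD, of S100a4, S100a6 and S100a13 under 5 settings of depth and scaling in the union, Ly6Chi-like and Ly6Clo-like monocytes. S100a13 stays negative under each setting (-2.12 to -0.70 in the union), whereas S100a4 in the union runs from -0.29 to 1.25 and S100a6 changes sign.

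S100a13, the member linked to fibroblast growth factor release, fell on the MCD in most classes. In the union it stood at 207, 211, 127 and 130 CPM, a log2 change of -1.07 ± 0.09 (adjusted p = 5.24e-05), with no overlap between the diets. Ly6Chi-like monocytes held it at 244, 229, 144 and 143 CPM (log2 -1.21 ± 0.12, adjusted p = 2.55e-05) and Ly6Clo-like monocytes at 154, 190, 122 and 123 CPM (log2 -0.79 ± 0.16, adjusted p = 0.00212). It also fell in cDC2-like cells (log2 -1.46, adjusted p = 3.48e-06), in NK-like cells (log2 -1.58, adjusted p = 0.00082) and in the cycling class (log2 -1.27, adjusted p = 0.00552). NK-like cells held the highest level on the NCD, 506 ± 78.1 CPM, and at 226 ± 14.6 CPM on the MCD they overlapped endothelial cells. Endothelial cells stood at 202, 249, 164 and 231 CPM, where the diets overlap (log2 -0.28, adjusted p = 0.26). In the union S100a13 passed with a negative value in all 20 alternatives, from -2.12 to -0.70, and its 5 class calls held with each library left out in turn. Ly6Chi-like cells of 1500 to 6000 UMIs held it at 248, 237, 113 and 44.8 CPM. After thinning to 1000 UMIs, 22.3%, 19.5%, 11.9% and 13.4% of Ly6Chi-like cells held an S100a13 UMI, and unthinned 37.8%, 37.3%, 82.7% and 78.5% did.

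S100a1, the head-to-head neighbour of S100a13, was a low transcript that rose where it was called. In the union it stood at 23.7, 17.8, 39.2 and 36.8 CPM without passing (log2 0.50 ± 0.18, adjusted p = 0.0523). It rose in Ly6Clo-like monocytes, from 10.9 and 10.6 CPM to 33.9 and 31.9 CPM on 5, 5, 134 and 134 UMIs (log2 1.32 ± 0.37, adjusted p = 0.0178). At matched depth S100a1 stood there at 0, 6.65, 18.4 and 6.54 CPM, where the diets overlap. Endothelial cells held its highest level on both diets, 47.3 ± 8.96 CPM on the NCD and 76.4 ± 15.2 CPM on the MCD, and it rose there too (log2 0.60 ± 0.20, adjusted p = 0.0358). At matched depth endothelial cells held S100a1 at 51.6, 57.4, 41.3 and 158 CPM, where the diets overlap as well. Leaving out NCD replicate 1 or NCD replicate 2 ended the Ly6Clo-like call (adjusted p = 0.0595 and 0.0888), and leaving out NCD replicate 1 or MCD replicate 2 ended the endothelial call (adjusted p = 0.157 and 0.373). Its level and that of S100a13 had a Pearson correlation of 0.01 over 51 class-by-library sums, which share libraries and depth.

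S100a6, or calcyclin, moved in opposite directions in the monocyte classes under TMM scaling at all depths. Ly6Chi-like monocytes, its highest class on both diets, held it at 2845, 2728, 2818 and 2902 CPM, where the diets overlap, and TMM scaling gave a log2 change of -0.46 ± 0.10 (adjusted p = 0.00626). With library totals that value was 0.04 (adjusted p = 0.708), and leaving out NCD replicate 1 or MCD replicate 1 ended the call (adjusted p = 0.0589 and 0.086). At 1500 to 6000 UMIs Ly6Chi-like cells held S100a6 at 2896, 2722, 2399 and 2352 CPM, where the diets did not overlap. Ly6Clo-like monocytes held it at 948, 935, 1718 and 1813 CPM, a rise of 0.61 ± 0.10 (adjusted p = 0.000499). The rise was not seen at matched depth: at 1500 to 6000 UMIs the levels were 1005, 924, 844 and 889 CPM, and MCD Ly6Clo-like cells of over 12000 UMIs stood at 1788 and 1857 CPM. S100a6 fell in cDC2-like cells, at 1864, 1888, 1543 and 1507 CPM (log2 -0.91, adjusted p = 1.91e-05), and in the cycling class, at 1102, 1157, 592 and 708 CPM (log2 -1.34, adjusted p = 0.000984). It rose in the Retnlg Ccr3 cluster, at 886, 1226, 2134 and 1907 CPM (log2 1.05 ± 0.21, adjusted p = 0.0425), the sole S100 gene that passed there, and leaving out NCD replicate 1 ended that call (adjusted p = 0.135). In the union it stood at 2014, 2048, 2117 and 2232 CPM, higher in both MCD libraries in CPM, and its call of -0.27 ± 0.08 (adjusted p = 0.0282) turned to 0.10 (adjusted p = 0.289) with library totals. That call was also lost without NCD replicate 1, NCD replicate 2 or MCD replicate 1 (adjusted p = 0.073, 0.0518 and 0.111). Without the lipid-associated macrophage-like class, nearly absent on the NCD, it was -0.05 (adjusted p = 0.649). Union cells of 1500 to 6000 UMIs held S100a6 at 2190, 2166, 1357 and 1645 CPM, where the diets did not overlap.

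S100a10, the partner of annexin A2, was highest outside the monocytes. NK-like cells held it at 647, 594, 891 and 834 CPM and the basophil-like cells of the NCD libraries at 805 and 839 CPM. Ly6Chi-like monocytes stood at 513, 605, 470 and 614 CPM and Ly6Clo-like monocytes at 139, 157, 154 and 220 CPM. The diets overlapped in both. At 1500 to 6000 UMIs they did not overlap in Ly6Chi-like monocytes, where S100a10 stood at 531, 608, 466 and 476 CPM. They still overlapped in Ly6Clo-like monocytes, at 148, 113, 122 and 105 CPM. In the union at that depth S100a10 stood at 403, 463, 246 and 290 CPM, where the diets did not overlap. With TMM scaling it fell in Ly6Chi-like monocytes (log2 -0.53 ± 0.15, adjusted p = 0.0193), in cDC2-like cells (log2 -1.02 ± 0.15, adjusted p = 0.000181) and in the cycling class (log2 -1.31 ± 0.30, adjusted p = 0.0118). In cDC2-like cells, at 426, 407, 262 and 365 CPM, the diets did not overlap. The union value of -0.47 ± 0.15 (adjusted p = 0.0356) passed in 10 of the 20 alternatives, and was -0.11 (adjusted p = 0.573) with library totals. It was lost without NCD replicate 2 (adjusted p = 0.205) or MCD replicate 1 (adjusted p = 0.159). The Ly6Chi-like call was lost without NCD replicate 1, NCD replicate 2 or MCD replicate 1 (adjusted p = 0.128, 0.248 and 0.205), and the cycling call without MCD replicate 1 (adjusted p = 0.0594), while the cDC2-like call held without each library.

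S100a11, the partner of annexin A1, was highest in the Retnlg Ccr3 cluster, at 856, 849, 1192 and 1379 CPM (log2 0.63, adjusted p = 0.208). In the union it stood at 397, 405, 532 and 546 CPM without passing (log2 0.06 ± 0.09, adjusted p = 0.664), while library totals gave 0.43 (adjusted p = 0.00329). It fell in cDC2-like cells with TMM scaling (log2 -0.54 ± 0.12, adjusted p = 0.00295) on levels of 616, 672, 636 and 718 CPM, where the diets overlap and library totals gave 0.07. It rose in endothelial cells, at 228, 213, 356 and 353 CPM (log2 0.57 ± 0.15, adjusted p = 0.00982). The cDC2-like call was lost without MCD replicate 1 (adjusted p = 0.0757) and the endothelial call without NCD replicate 2 (adjusted p = 0.0622). GENCODE holds processed pseudogenes of S100a11 whose exons match it at 90.5% to 99.0% over the aligned bases and which are not in the deposited gene tables, so reads of these could not be listed apart. Gm42674, which overlaps S100a4 and matches its 302 aligned bases at 100%, is in the tables and had 0 UMIs.

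Endothelial barcodes carried leukocyte transcripts, and the S100 genes split by them. In barcodes with at most 4 UMIs of Ptprc, Tyrobp, Lyz2 and Cd52 (47, 114, 33 and 76 barcodes) S100a4 stood at 60.0, 22.6, 20.2 and 27.6 CPM, and in the other barcodes at 332, 333, 986 and 1027 CPM. S100a6 stood at 120, 64, 47.1 and 49.7 CPM in the first and at 707, 805, 1191 and 1192 CPM in the second. S100a11 stood at 150, 109, 155 and 135 CPM in the first, where the diets overlap, and at 235, 231, 384 and 382 CPM in the second. S100a1 went the other way, at 70.0, 102, 155 and 199 CPM in the first and 38.6, 45.5, 53.5 and 71.9 CPM in the second. S100a13 and S100a10 were also higher in the first set in each library. S100a13 stood at 210, 343, 296 and 425 CPM against 201, 233, 146 and 204 CPM. S100a10 stood at 370, 354, 310 and 403 CPM against 276, 307, 256 and 354 CPM. The second set was also deeper, with medians of 4942, 5080, 14441 and 16726 UMIs against 1983, 2200.5, 4773 and 4738 in the first. Within a library depth and leukocyte RNA therefore cannot be told apart. The MCD barcodes of the first set and the NCD barcodes of the second had similar medians but differ in diet. S100a4 stood there at 20.2 and 27.6 against 332 and 333 CPM, and S100a6 at 47.1 and 49.7 against 707 and 805 CPM. In CPM the endothelial rises of S100a4 (log2 1.46), S100a6 (log2 0.52, adjusted p = 0.0113, lost without MCD replicate 1 or 2) and S100a11 were seen in the second set. Among the barcodes with few leukocyte UMIs, an alternative added after seeing the data, S100a1 rose (log2 1.01 ± 0.32, adjusted p = 0.0244), S100a6 gave -0.70 (adjusted p = 0.278), S100a11 gave 0.24 (adjusted p = 0.66), S100a13 gave 0.36 (adjusted p = 0.342) and S100a4 was under the count filter.

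Whether a class responded differently from the Ly6Chi-like monocytes was tested by a class by diet term with the library as a block. Of 55 terms fitted for S100 genes against 7 other classes, 24 passed, where the share of all genes that passed was 5.01% for Ly6Clo-like monocytes, 0.568% for cDC2-like cells, 6.98% for endothelial cells, 3.46% for migratory DC-like cells, 5.36% for the Retnlg Ccr3 cluster, 0.299% for the cycling class and 0.230% for NK-like cells. The rise of S100a4 was larger in Ly6Clo-like than in Ly6Chi-like monocytes by 0.93 (adjusted p = 3.18e-07) and larger in migratory DC-like cells by 1.13 (adjusted p = 2.57e-07). The S100a6 change was higher in Ly6Clo-like monocytes by 1.09 on the log2 scale (adjusted p = 5.6e-10) and lower in cDC2-like cells, by a term of -0.44 (adjusted p = 0.00183) that was lost without NCD replicate 1 (adjusted p = 0.0777). The S100a13 change was higher in endothelial cells by 0.97 (adjusted p = 0.00133). The S100a8 and S100a9 terms rest on the 2 high cells of NCD replicate 1 in the Ly6Chi-like class, and without that library 13 of the terms passed. The same depth limits apply to the S100a4 and S100a6 terms.

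Genes of the same biology were counted in the union from fixed lists, beside a median log2 change of 0.04 over all genes tested, of which 20% rose and 18.0% fell. The mix of classes in the union differs by diet, as it holds 1, 4, 251 and 217 lipid-associated macrophage-like cells per library. Union changes can therefore differ from those within a class. Of 7 receptors and cofactors for extracellular S100 proteins, 2 rose and 1 fell (median -0.09): Cd14, the lipopolysaccharide co-receptor, rose by 1.86 and Bsg (basigin) by 0.62, and the scavenger receptor Cd36 fell by 0.88. Tlr4 (log2 -0.23, adjusted p = 0.389) and Ager, which encodes RAGE (log2 1.35, adjusted p = 0.331), did not pass. Of 9 genes for annexins and the annexin A2 partner Ahnak, 5 rose and 1 fell (median 0.33), with Anxa3 at 1.45, Anxa2 at 0.73 and Anxa4 at 0.54 among the rises and Ahnak at -0.46 the fall. Of the same 9 genes, 1 rose and 1 fell within Ly6Chi-like monocytes, and 3 rose and 0 fell within Ly6Clo-like monocytes. Of 6 intracellular targets, Ppp5c and Iqgap1 rose, by 1.62 and 0.65, and Cacybp and Sugt1 fell, by 1.09 and 0.41, around a list median of 0.27. Myh9, the myosin heavy chain that S100A4 binds, gave 0.14 and did not pass. Of 12 other EF-hand genes 11 were tested, 4 rose and 3 fell (median 0.11), with Capns1 at 0.97, Aif1 at 0.74 and Sri at 0.37 among the rises and the calcineurin subunit Ppp3r1 at -0.72 and Calm2 at -0.40 among the falls. Of 7 transcription factors known at the S100a8 and S100a9 genes 6 were tested and 4 rose (median 0.80), among them Cebpa by 1.35, Stat3 by 0.80 and Cebpb by 0.79. Within Ly6Chi-like monocytes 4 of the 6 tested rose, and within Ly6Clo-like monocytes 3 of the 5 tested. Of 12 neutrophil genes 9 were tested, and 2 rose and 4 fell (median -0.44), with Il1r2 at 1.06, Mmp8 at 0.63, Camp at -10.42, Wfdc21 at -3.88 and Mmp9 at -2.73. Camp stood at 444, 3.18, 0.405 and 0 CPM and Wfdc21 at 53.9, 0.636, 4.22 and 0.572 CPM in the union, with NCD replicate 1 alone high for both.

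Genes with the most similar pattern were ranked by the Pearson correlation of log2(CPM + 20) over 51 class-by-library sums, among 7573 genes; these sums share libraries, depth and, for some genes, single cells, and the correlations are descriptions. S100a8 and S100a9 were each other's nearest gene, at 0.98, followed for both by Wfdc21 and Camp. S100a4 was most like Ifi30 (0.87), Clta and Scand1 (both 0.85). S100a6 was most like Ahnak (0.75), Cib1 (0.70) and AI839979 (0.67), S100a10 like Ssbp2 (0.74), Rac2 (0.70) and Zfp36l2 (0.69), and S100a11 like Adam8, Tagln2 (both 0.67) and Actg1 (0.65). S100a13 was most like Bloc1s1 (0.78), Cox20 (0.73) and Dpm3 (0.72), and S100a1 like Nr2f6 (0.77), Mcfd2 (0.75) and Cdc42bpb (0.74). Among other pairs of S100 genes the highest correlations were 0.57 for S100a1 with S100a4, 0.43 for S100a4 with S100a6 and 0.31 for S100a10 with S100a13. The lowest were -0.35 for S100a1 with S100a10, -0.34 for S100a4 with S100a10, and -0.30 for S100a11 with both S100a1 and S100a13. Of the 9 S100 genes outside the set, S100a16 had 1108 UMIs in the retained cells (129, 233, 195 and 551), the other 8 had under 50 each, and S100z had none. Together the 8 genes took 0.535%, 0.505%, 0.505% and 0.477% of all retained UMIs.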

How the data were processed

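Per the file headers the deposited matrices hold counts of UMIs per gene and barcode from Cell Ranger 3.0.2; the submitters' processing notes name Cell Ranger and mm10. The gene table of MCD replicate 1 lists 27998 genes, all found among the 28692 of the other libraries, and the shared genes were used. The filter asked for 200 or more genes and no more than 10% mitochondrial UMIs per barcode. No doublet caller was run, so doublets remain. Cells were clustered with scanpy 1.11.5 (2000 variable genes without S100 genes, 30 components, 15 neighbours, leidenalg 0.10.2 at resolution 1.0), and clusters were named from marker lists. With S100 genes kept, 95.2% of cells had the same class. UMIs were summed per library and class (at least 20 cells), and the library was the replicate.

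Diet was tested across all genes with edgeR 4.0.16 in R 4.3.3 (quasi-likelihood test, TMM factors, filterByExpr, Benjamini-Hochberg adjustment, threshold 0.05); SE is on the log2 scale. DESeq2 1.42.0 was an alternative, beside other scalings, filters, resolutions, depths, left-out cells and left-out replicates. Totals were 7518597, 7428431, 32975974 and 37772284 UMIs. For shares of cells, each cell was thinned to 1000 UMIs and shallower cells were left out, with exact (Clopper-Pearson) 95% intervals; 3 cells set the limit for a count of 0. Intervals cover counting error only. Replicate numbers pair no samples: same-numbered libraries had a correlation of deviations of 0.03 in the union. Named are all 8 members, the 3 largest passing rises and falls of each list in the union (1 of these genes is not reported here), and the 3 genes most like each member with at least 100 UMIs per library (mean of at least 10 CPM); other genes were named after their values were seen. Members, rule and lists were chosen with earlier results of these data known. Scripts were tested on simulated data with known changes.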

Additional observations from a re-analysis of the deposited data

Results flagged for a closer look

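These S100 genes had a diet effect that differed from that in Ly6Chi-like monocytes, by edgeR's test of the class by diet term with the library as a block (log2, MCD over NCD, other class minus Ly6Chi-like; adjusted p under 0.05 in each). In Ly6Clo-like monocytes the difference was 0.93 for S100a4, 1.09 for S100a6, 0.60 for S100a10, 5.37 for S100a8 and 8.16 for S100a9. In cDC2-like cells it was -0.44 for S100a6, -0.62 for S100a11, 5.17 for S100a8 and 6.83 for S100a9. In endothelial cells it was 0.83 for S100a4, 1.03 for S100a6, 0.53 for S100a10, 0.52 for S100a11, 0.97 for S100a13 and 8.27 for S100a9. The endothelial S100a4, S100a6 and S100a11 values move with leukocyte RNA and depth in the same barcodes.

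In migratory DC-like cells the difference was 1.13 for S100a4, 15.06 for S100a8 and 11.11 for S100a9, and in the cycling class -0.91 for S100a6. In the Retnlg Ccr3 cluster it was 1.86 for S100a6, 2.61 for S100a13, 1.10 for S100a10, 12.04 for S100a8 and 15.89 for S100a9. NCD migratory DC-like cells held no S100a8 UMI, and the NCD cells of the Retnlg Ccr3 cluster held 1, so these fitted S100a8 and S100a9 values are no measure of size. All S100a8 and S100a9 differences rest on the 2 cells of NCD replicate 1 in the Ly6Chi-like class that held 3264 and 1153 S100a8 UMIs. None of those 9 passed without NCD replicate 1. With each library left out in turn, the differences that passed every time were S100a4 and S100a6 in Ly6Clo-like monocytes, S100a11 in cDC2-like cells, S100a4, S100a6 and S100a13 in endothelial cells, and S100a4 in migratory DC-like cells.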

How the results depend on the processing

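Of 813 S100 results recomputed under alternatives, 647 kept their direction and side of the threshold, 121 lost and 15 gained a call, and 30 changed sign. The limits are 2 libraries per diet, MCD cells several times deeper than NCD cells, and S100a8 and S100a9 totals that rest on single cells.

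Restricting to cells of 1500 to 6000 UMIs with TMM factors gave S100a1 -0.11, S100a4 -0.86 and S100a6 -0.87 in all retained cells; S100a4 -0.12 in Ly6Chi-like and S100a6 -0.55 in Ly6Clo-like monocytes; S100a4 -1.59 and S100a6 -0.63 in endothelial cells; S100a4 -0.29 and S100a11 -0.52 in the union; and -1.39 for the endothelial S100a4 class by diet term. With library totals as well, S100a4 and S100a6 were both -0.28 in all cells, S100a6 was -0.10 in Ly6Clo-like monocytes, and S100a4 and S100a6 were -1.36 and -0.40 in endothelial cells. At that depth 8 of the S100 results in classes passed under either scaling (14 at all depths in the same classes), 2 in all cells with library totals (5 at all depths) and 3 class by diet terms (11 at all depths). Fewer MCD cells remained; the cause was not tested further.

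Library totals alone turned S100a6 to 0.04 in Ly6Chi-like monocytes and 0.10 in the union, and S100a11 to 0.07 in cDC2-like cells, where TMM factors had given falls or no call; they moved the median of all genes in the union from 0.04 to 0.41. Leiden resolution 0.5 gave S100a11 -0.51 in the union. A 20% mitochondrial limit gave S100a1 -0.16 in endothelial cells. Leaving out cells with a UMI of 7 neutrophil genes gave S100a6 -0.09 in all cells. These genes include Retnlg and Mmp8, which led the Retnlg Ccr3 cluster and the MCD Ly6Chi-like cluster, so cells of those clusters were left out too. Endothelial barcodes with fewer than 5 leukocyte UMIs gave S100a6 -0.70, and 1 of the class's 4 calls passed. With no filter on low counts 2 of the 8 S100 genes passed in the union (6 with it), and 2324 of all genes (4170 with it); in cells of 1500 to 6000 UMIs 1901 of all genes passed there.

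With each replicate left out in turn, the log2 change of S100a8 ran from -7.60 to 1.79 in Ly6Chi-like monocytes and from -6.94 to 0.67 in the union; the class by diet terms ran from -2.71 to 6.72 (S100a8) and -1.19 to 10.47 (S100a9) for Ly6Clo-like monocytes, and from -3.52 to 6.31 and -2.56 to 7.95 for cDC2-like cells. In each of these the sign changed only without NCD replicate 1. S100a10 ran from -0.43 to 0.01 in all cells (the latter without MCD replicate 1) and S100a11 from -0.03 (without MCD replicate 2) to 0.09 in the union. Over the replicates left out in turn, 4 to 6 S100 genes passed in the union, 22 to 27 results in classes, 3 to 5 genes in all cells (3 without NCD replicate 2) and 13 to 23 class by diet terms.

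A replicate block, although the numbers pair no samples, left 6 S100 genes past the threshold in the union, 30 results in classes and 6 genes in all cells; the correlation of same-numbered deviations was 0.03 in the union and 0.17 in all cells.

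With the highest cell of each sum left out, 4 of 15 sums had over 50% of their S100a8 UMIs in 1 cell (11 of 19 with it), and 5 of 6 in cells of 1500 to 6000 UMIs. The Ly6Chi-like share with an S100a8 UMI was 1.45% and 0.221% (NCD), 1.63% and 1.19% (MCD) when thinned to 500 UMIs, NCD replicate 1 lying between the MCD values, and 21.8% and 12.5% (MCD) unthinned. Not run, for too few cells, were matched depth in NK-like, cDC2-like, cycling, migratory DC-like and Retnlg Ccr3 cells, resolution 0.5 in the monocyte and NK-like classes, and some cluster settings in the cycling class; no neutrophil-like class existed to leave out.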
